A study of Mus musculus with 8 samples.

Results

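The PIWI-interacting RNA (piRNA) pathway core genes described here are *Ddx4*, *Piwil2*, *Piwil4*, *Tdrd1*, *Tdrd9*, *Mael*, *Mov10l1*, *Gpat2*, *Asz1* and *Fkbp6*, 10 of the 24823 gene IDs in a table of read counts from whole mouse ovaries. They were chosen by name for their role in the pathway, with earlier results of these data known. They were found in the table by joining its gene IDs to symbols. RNA sequencing was done on 8 libraries of ovaries collected at postnatal day 4 (PND4), 4 labelled CON and 4 labelled cKO, to learn what changes when the nuclear receptor NR5A2 is removed from granulosa cells at the time primordial follicles are formed. All mice were on a C57BL/6 background and carried *Nr5a2* fl/fl, in which Cre recombinase cuts out exons 4 and 5. The cKO mice were also *Amhr2* Cre/+, so that Cre was driven by the gene of the anti-Mullerian hormone receptor, which is active in granulosa cells and in the surface epithelium of the ovary. The CON mice were nonmutant females, written in the methods as *Nr5a2* fl/fl; *Amhr2* Cre/-. Neither litters nor pooling of animals are given in the labels, so the p-values measure the spread between these libraries only.

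The piRNA pathway protects germ cells from transposons. PIWI proteins carry small RNAs that match transposon transcripts, cleave those transcripts in the cytoplasm and, in fetal male germ cells, guide DNA methylation to transposons in the nucleus. The small RNAs are made from long precursors by helicases, nucleases and scaffold proteins with tudor domains, many of which sit on the outer mitochondrial membrane or in germ granules. In mice, loss of these genes is known above all for male sterility. Many of the same genes are transcribed in oocytes, the only germ cells of the neonatal ovary, which at this age are being enclosed in primordial follicles after passing through meiotic prophase.

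Of the members, 9 were between 0.31 and 0.92 higher on the log2 scale in the libraries labelled cKO, whichever single library was left out of the edgeR fit, while *Piwil4* lay between -0.18 and 0.18. With all libraries, *Ddx4*, *Tdrd1*, *Tdrd9*, *Mov10l1* and *Gpat2* rose, 5 of the 10 members, and none fell. A gene is said to have passed, risen or fallen at a Benjamini-Hochberg adjusted p under 0.05 over all 15257 genes tested, in edgeR's quasi-likelihood test. By that rule 3.64% of all genes were higher in cKO and 3.28% were lower. Of these calls 52.6% were thus higher, against 40.0% after scaling by the upper quartile. The median log2 fold change was 0.63 over the members and -0.0005 over all genes. For 4 of the risen members, all but *Tdrd9*, the fold change was also at least 1.5, as it was for 0.891% of all genes, with 0.518% lower by that fold. The calls of single members were sensitive to single libraries. Without CON 1, 8 members passed, without cKO 4, 5 did, and without cKO 1, 1 did, which was *Tdrd9*. With any of CON 2, CON 3, CON 4, cKO 2 and cKO 3 left out, 0 members passed in edgeR, although 8 or 9 were higher at an unadjusted p under 0.05 in each of these fits, as 9 were with all libraries, against 15.5% of all genes. Without CON 2 or CON 3, 0 of all genes passed. In DESeq2, the tool named in the study's methods, 8 members were higher, against 8.61% of all genes (7.14% were lower), and between 6 and 9 were higher with a library left out. No member was lower at an unadjusted p under 0.05 in edgeR or at an adjusted p under 0.05 in DESeq2.

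Assigned reads lay between 14649243 and 29066847 per library. The columns of the table name the genotype but not the sample title, so the libraries carry the numbers 1 to 4 that the columns give them within each genotype. Levels are given as CPM, the read counts divided by the library total after its correction by the trimmed mean of M values (TMM) and scaled in the usual way, with factors between 0.978 and 1.03. The targeted gene did not follow its label: *Nr5a2* lay between 12.2 and 18.5 CPM in CON and between 23.1 and 31.0 CPM in the libraries labelled cKO, and passed with a log2 difference of 0.82 (SE 0.13, adjusted p = 0.0128). These counts cover the whole gene, so that reads from exons outside the excised ones are included, and the labels were taken as given. *Amhr2*, the gene that drives Cre, lay between 81.9 and 112 CPM in CON and between 48.7 and 79.9 CPM in cKO, with no overlap and a log2 difference of -0.59 (SE 0.16, adjusted p = 0.0539 in edgeR). DESeq2 called *Amhr2* lower (adjusted p = 0.00381) and *Nr5a2* higher (8.5e-07) in cKO, also with any single library left out. Blood cell markers stood apart in CON 1 and CON 3, with summed levels of 209 and 202 CPM against 18.2 to 25.1 CPM in the other libraries. Immediate-early genes summed to 2100 CPM in cKO 1 and 693 CPM in cKO 2 against 319 to 492 CPM elsewhere, and smooth muscle markers to 426 and 637 CPM in cKO 1 and cKO 2 against 1390 to 2380 CPM elsewhere. Of these lists, 1 of 6 tested blood genes passed (lower, with 4 lower at an unadjusted p under 0.05 and 4 in DESeq2), and 0 of 10 immediate-early (4 higher at an unadjusted p under 0.05, 2 in DESeq2) and 0 of 5 smooth muscle genes (1 lower at an unadjusted p under 0.05, 0 in DESeq2) did in edgeR, and no listed marker was at 0 in all libraries. Without CON 1 and CON 3, 1 member passed, and without cKO 1 and cKO 2, 0 passed in edgeR (9 and 7 at an unadjusted p under 0.05). The part of these differences in the values of the members was not tested.

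*Ddx4*, which encodes the DEAD-box RNA helicase of germ granules known as mouse vasa homolog, is the usual marker of germ cells. Its gene lies on chromosome 13 from 112598333 to 112652633 (RefSeq, GRCm38, minus strand), and the positions of the other genes are given on the same build. *Ddx4* was measured at 41.6, 28.8, 32.5 and 28.0 CPM in CON libraries 1 to 4, and at 53.6, 56.0, 46.9 and 44.0 CPM in cKO libraries 1 to 4. The lowest cKO library was above the highest CON library, CON 1. Means were 32.7 ± 6.25 CPM in CON and 50.1 ± 5.61 CPM in cKO (SD, n = 4), and the log2 fold change was 0.62 (SE 0.13, adjusted p = 0.0326). With single libraries left out, the adjusted p of *Ddx4* ranged from 0.00778 to 0.108. In RNA of a whole ovary, more germ cells and more of a transcript per germ cell cannot be told apart.

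**Figure D1:**
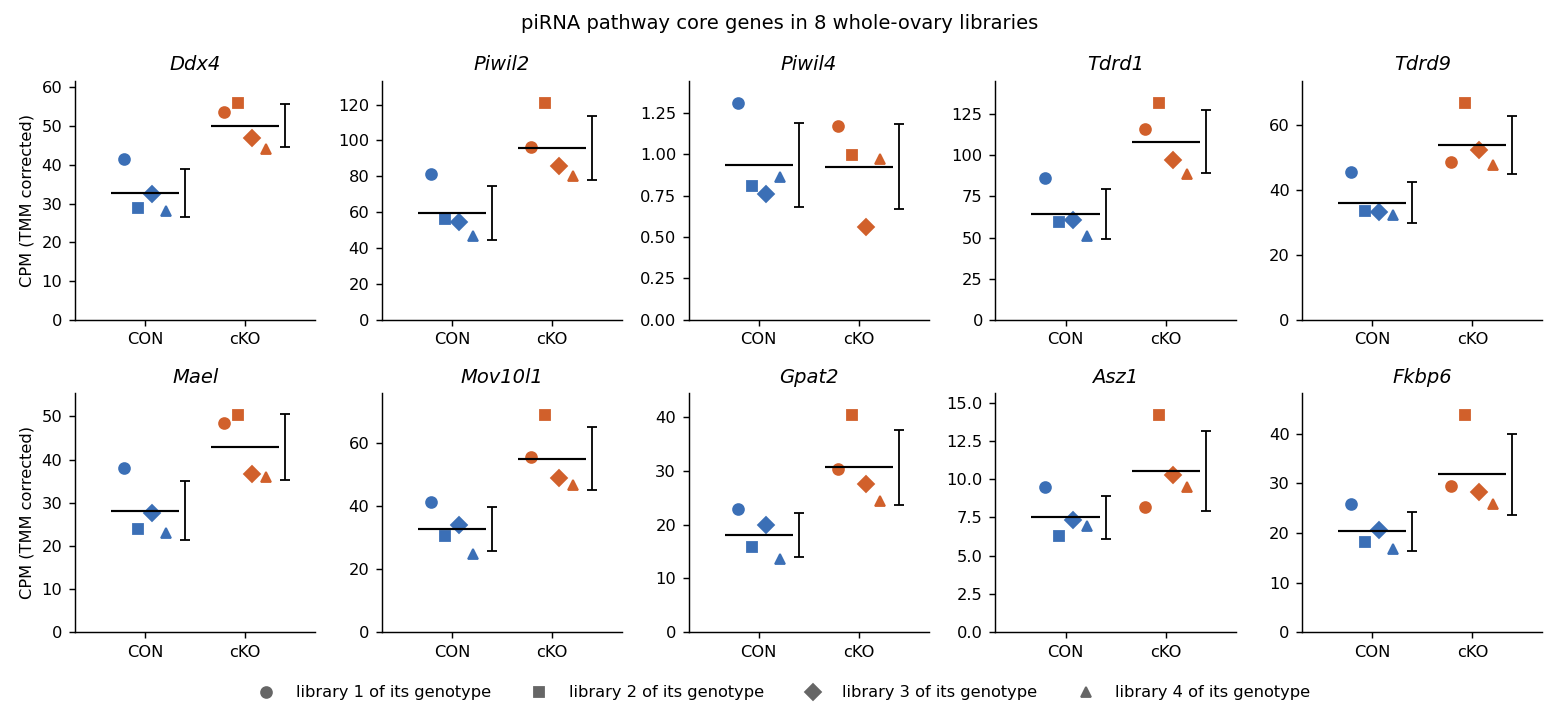
CPM after TMM correction (vertical axes, each starting at 0) of the 10 piRNA pathway core genes in CON (blue) and cKO (orange), with a symbol for each of the 4 libraries of a genotype, a line at the mean and a bar of 1 SD to each side. In 5 of the 10 panels the 4 cKO libraries sit above the 4 CON libraries, cKO 2 is the highest library in 9 panels and CON 1 the highest CON library in all 10, while *Piwil4* lies near 1 CPM in both genotypes.

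Of the PIWI proteins, *Piwil2* (chromosome 14, 70372477 to 70436898) encodes MILI, which binds piRNAs in the cytoplasm and cleaves transposon transcripts, and *Piwil4* (chromosome 9, 14701776 to 14740672) encodes MIWI2, the nuclear PIWI protein of fetal male germ cells. *Piwil2* had 81.2, 56.2, 54.8 and 46.5 CPM in CON libraries 1 to 4, and 96.4, 121, 85.5 and 80.4 CPM in cKO libraries 1 to 4. The genotypes overlapped by a narrow margin, since cKO 4 lay just below CON 1, and the other 3 cKO libraries exceeded every CON library. The log2 fold change of *Piwil2* was 0.68 (SE 0.18), which missed the threshold at an adjusted p of 0.054, and the gene passed without CON 1.

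*Piwil4* was hardly detected. Its 25, 23, 13 and 15 reads in CON libraries 1 to 4 and 29, 16, 13 and 14 reads in cKO libraries 1 to 4, 148 in all, correspond to 1.31, 0.809, 0.76 and 0.859 CPM and to 1.17, 0.997, 0.562 and 0.968 CPM. The genotypes overlapped throughout, with CON 1 the highest and cKO 3 the lowest library. A log2 fold change of -0.02 (SE 0.31, adjusted p = 0.976) was obtained, which turned to 0.02 with scaling by library size only, and a change as large as the 0.48 of *Asz1* lies within 2 SE of it. On the opposite strand, exons of the antisense gene *Gm10706* overlap those of *Piwil4*, and whether strand was used in the counting is not given in the sources used here, so reads of the pair may not have been separated. Per kilobase of exon, *Piwil2* was 55.1 to 73.5 times as high as *Piwil4* within the CON libraries and 84.3 to 155.0 times as high within the cKO libraries.

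The tudor proteins bind methylated arginines of PIWI proteins. *Tdrd1* (chromosome 19, 56826171 to 56870012) encodes a scaffold with several tudor domains that gathers MILI in the granules between mitochondria. Its levels were 86.4, 59.5, 60.4 and 51.1 CPM in CON libraries 1 to 4, and 116, 132, 97.1 and 88.6 CPM in cKO libraries 1 to 4. All cKO libraries were above all CON libraries, by a small gap between cKO 4 and CON 1. The log2 fold change of *Tdrd1* was 0.75 (SE 0.17, adjusted p = 0.0403), from a mean of 64.3 ± 15.3 CPM to 108.0 ± 19.5 CPM (SD, n = 4). *Tdrd9* (chromosome 12, 111971488 to 112068854) encodes a tudor protein with a helicase domain that works with MIWI2 in fetal male germ cells. It was measured at 45.3, 33.4, 33.0 and 32.2 CPM in CON libraries 1 to 4, and at 48.5, 66.7, 52.1 and 47.6 CPM in cKO libraries 1 to 4. CON 1 stood apart from the other CON libraries, which lay close together, and still lay below every cKO library. The log2 fold change of *Tdrd9* was 0.58 (SE 0.14, adjusted p = 0.0416), a fold of 1.49.

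*Mov10l1* (chromosome 15, 88982891 to 89055152) encodes the RNA helicase that binds piRNA precursors and passes them on for processing. It was at 41.4, 30.4, 33.9 and 24.7 CPM in CON libraries 1 to 4, and at 55.4, 68.8, 48.7 and 46.7 CPM in cKO libraries 1 to 4. The genotypes did not overlap. The log2 fold change of *Mov10l1* was 0.75 (SE 0.17, adjusted p = 0.0373), with means of 32.6 ± 6.97 CPM in CON and 54.9 ± 9.98 CPM in cKO (SD, n = 4). *Mael* (chromosome 1, 166201385 to 166238744) encodes maelstrom, a granule protein needed for transposon silencing. Values of 38.0, 23.9, 27.7 and 23.0 CPM in CON libraries 1 to 4 and of 48.5, 50.3, 36.6 and 36.0 CPM in cKO libraries 1 to 4 were obtained. CON 1 exceeded cKO 3 and cKO 4, and the log2 fold change of 0.61 (SE 0.18) did not pass (adjusted p = 0.0651).

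A pair of members act at the mitochondrial membrane. *Gpat2* (chromosome 2, 127425154 to 127436093), which encodes a protein of the glycerol-3-phosphate acyltransferase family that is needed for the first steps of piRNA production, was at 22.9, 15.8, 19.9 and 13.6 CPM in CON libraries 1 to 4, and at 30.3, 40.4, 27.5 and 24.4 CPM in cKO libraries 1 to 4. Its genotypes did not overlap, and its log2 fold change of 0.76 (SE 0.19, adjusted p = 0.0466) was the largest of the members, though within 1 SE of those of *Tdrd1*, *Mov10l1*, *Piwil2*, *Fkbp6*, *Ddx4*, *Mael* and *Tdrd9*. *Asz1* (chromosome 6, 18050964 to 18109061) encodes GASZ, a scaffold protein that ties germ granules to mitochondria. It was low, at 9.51, 6.26, 7.36 and 6.93 CPM in CON libraries 1 to 4, and at 8.16, 14.2, 10.3 and 9.47 CPM in cKO libraries 1 to 4. Here cKO 1 and cKO 4 lay below CON 1, and the log2 fold change of 0.48 (SE 0.19) did not pass (adjusted p = 0.126), nor did it with any library left out in edgeR.

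*Fkbp6* (chromosome 5, 135291704 to 135351809) encodes a cochaperone of HSP90 that assists the loading of PIWI proteins with RNA. It was measured at 25.8, 18.2, 20.6 and 16.8 CPM in CON libraries 1 to 4, and at 29.5, 43.8, 28.2 and 25.8 CPM in cKO libraries 1 to 4. The lowest cKO library and the highest CON library were equal to 3 digits, and cKO 2 stood well above the rest. The log2 fold change of *Fkbp6* was 0.64 (SE 0.18, adjusted p = 0.0632). In all, 5 members had every cKO library above every CON library, which 8.93% of all genes tested showed (9.1% showed the reverse), and they are the same members that rose.

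Levels of different genes can be compared only per length. Per kilobase of exon, the CON mean was highest for *Mael*, at 16.2 ± 3.97 CPM per kilobase (SD, n = 4), and *Mael* was above the next gene, *Tdrd1*, in 8 of 8 libraries, although their ranges over CON libraries overlapped. *Tdrd1* (11.8), *Fkbp6* (11.6), *Piwil2* (11.3) and *Ddx4* (10.9 CPM per kilobase) followed. Neighbours among them overlapped and changed places between libraries, and pairs further apart in this order were not compared. *Mov10l1* at 7.8, *Gpat2* at 6.87 and *Tdrd9* at 6.64 CPM per kilobase came next with overlapping ranges. Even so, *Ddx4* was above *Mov10l1* and *Mov10l1* above *Gpat2* in 8 of 8 libraries, and *Gpat2* above *Tdrd9* in 6 of 8. *Asz1*, at 2.66 ± 0.497 CPM per kilobase, lay below *Tdrd9* without overlap, and *Piwil4*, at 0.173 ± 0.0468 CPM per kilobase, lay below *Asz1* without overlap.

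The members other than *Piwil4* varied together from library to library. Over the 8 libraries, which the genes share together with their depth and genotype, Pearson's r of log2 CPM was between 0.8 and 0.99 for the 36 pairs of these 9 members, and between 0.6 and 0.99 once the mean of each genotype was taken out. For the 9 pairs that include *Piwil4*, r was between 0.15 and 0.43 before and between 0.24 and 0.73 after that step. The genes outside the list most like the mean of the members over the 8 libraries were *Kit* (r = 0.995), *Nexmif* (0.994), *Smc1b* (0.993), *Kdm1b* (0.993) and *Siah1b* (0.992). *Kit* encodes the receptor for KIT ligand on the oocyte, *Smc1b* a cohesin subunit of meiosis, *Kdm1b* a histone demethylase of growing oocytes and *Siah1b* a ubiquitin ligase.

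A further 20 genes of the pathway were listed, of which 18 were in the table and 15 had enough counts to be tested. *Tdrd5* and *Pnldc1* rose, 2 of the 15, and none fell (0 lower at an unadjusted p under 0.05 in edgeR, and 0 in DESeq2). All 15 had a positive log2 fold change, as had 49.9% of all genes, with a median of 0.54, and 10 were higher at an unadjusted p under 0.05. DESeq2 called 7 of them higher. In edgeR 6 genes passed without CON 1 and 2 without cKO 4, while 0 passed when any other library was left out.

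*Tdrd5*, which encodes a tudor protein of the germ granule, had 57.9, 42.2, 43.9 and 36.6 CPM in CON libraries 1 to 4, and 75.1, 86.5, 68.0 and 57.5 CPM in cKO libraries 1 to 4. Its log2 fold change was 0.67 (SE 0.15, adjusted p = 0.0403), with cKO 4 just below CON 1. *Pnldc1* encodes the exonuclease that trims the 3′ ends of piRNAs. At 8.36, 6.97, 7.83 and 5.5 CPM in CON libraries 1 to 4 and 11.8, 11.1, 10.4 and 9.2 CPM in cKO libraries 1 to 4, its genotypes did not overlap, and the log2 fold change was 0.57 (SE 0.14, adjusted p = 0.0435).

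Several others were higher at an unadjusted p under 0.05 in edgeR but did not pass after adjustment. *Tex15*, needed for transposon silencing in male germ cells, had a log2 fold change of 0.59 (adjusted p = 0.0692) with no overlap of the genotypes. For *Exd1*, whose product is a partner of TDRD12, the log2 fold change was 0.65 (adjusted p = 0.0744), for the tudor protein gene *Stk31* 0.54 (0.0749), and for *Morc1*, needed for DNA methylation of transposons in male germ cells, 0.60 (0.0901). *Gtsf1*, whose product helps PIWI proteins to cleave their targets, was at 0.53 (0.107), *Rnf17*, another tudor protein gene, at 0.56 (0.127) and *Pld6*, which encodes the mitochondrial nuclease that cuts piRNA precursors, at 0.40 (0.163). *Piwil1*, the PIWI gene of later male germ cells, was low like *Piwil4*, with 1.16 ± 0.248 CPM in CON and 2.23 ± 1.16 CPM in cKO (SD, n = 4), and its log2 fold change of 0.98 had a large error (SE 0.36, adjusted p = 0.109), the highest value being 3.90 CPM in cKO 1. The 5 remaining tested genes, *Tdrkh*, *Tdrd7*, *Tdrd12*, *Mybl1* and *Henmt1*, had log2 fold changes between 0.12 and 0.29. *Tdrd6*, *Btbd18* and *Dnmt3l* had too few counts to be tested. Among 10 genes that restrain transposons or make small RNAs outside this pathway, 0 passed in edgeR (3 higher at an unadjusted p under 0.05, and 1 in DESeq2), with a median log2 fold change of 0.10. That list was not matched to the members for level or for the cells that express its genes, so its median is no measure of what is particular to the pathway.

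**Figure D2:**
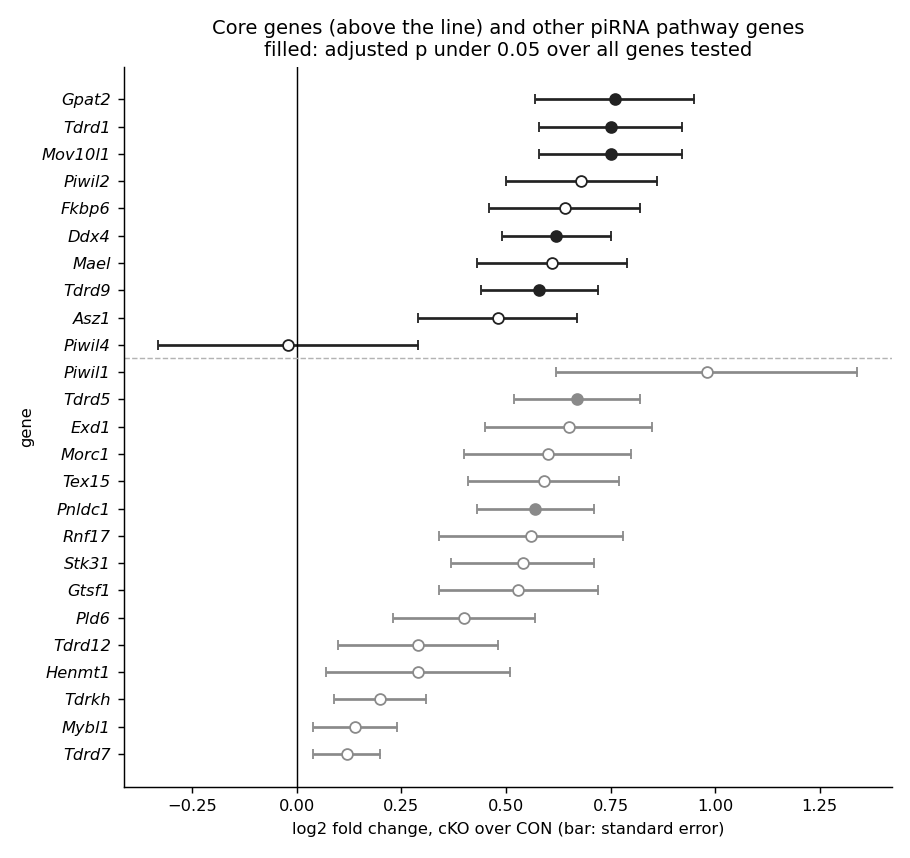
Log2 fold change of cKO over CON (horizontal axis) for the 10 core genes (black, above the dashed line) and the 15 tested other genes of the pathway (grey), with bars of 1 standard error and filled points where the adjusted p over all genes was under 0.05. All points but that of *Piwil4* at -0.02 (0.02 with scaling by library size only) lie above 0, and 5 of the core genes and 2 of the others are filled.

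As the members are germ cell genes, general oocyte markers and genes of meiotic prophase were set beside them. Of 20 oocyte markers, which include zona pellucida genes, secreted factors and transcription factors of the oocyte, 2 rose, *Dazl*, which encodes a germ cell RNA-binding protein (log2 fold change 0.74, adjusted p = 0.0432) and *Bmp15*, a growth factor gene (1.01, 0.0434), and all 20 were positive with a median of 0.56. At an unadjusted p under 0.05 in edgeR, 17 of the 20 were higher, against 15.5% of all genes. DESeq2 called 16 of them higher, and in edgeR 15 passed without CON 1, 5 without cKO 4 and 0 with any other library left out. Of 15 tested genes of meiotic prophase, 3 rose, *Sycp2* and *Syce1* of the synaptonemal complex and *Smc1b*, with a median over the 15 of 0.56. Of the 15, 8 were higher at an unadjusted p under 0.05 in edgeR. DESeq2 called 5 of these 15 genes higher, and in edgeR 6 passed without CON 1, 1 without cKO 4 and 0 with any other library left out. Thus the medians of the 3 lists, 0.63, 0.56 and 0.56, lay close together, a description with no test.

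The lists differed in the library that was highest. The summed level of the 10 members was 393, 273, 291 and 244 CPM in CON libraries 1 to 4, and 488, 594, 433 and 404 CPM in cKO libraries 1 to 4, with the highest value in cKO 2. The summed level of the oocyte markers was 2420, 1800, 1980 and 1590 CPM in CON libraries 1 to 4, and 3280, 2330, 2880 and 2520 CPM in cKO libraries 1 to 4, with the highest value in cKO 1 and the lowest of the cKO values in cKO 2. Counting each oocyte marker equally, the mean log2 deviation was also highest in cKO 1, at 0.54, but was 0.16 in both cKO 2 and cKO 4. Summed genes of meiotic prophase had 272, 208, 215 and 185 CPM in CON libraries 1 to 4, and 305, 402, 291 and 277 CPM in cKO libraries 1 to 4, with the highest value in cKO 2. The members and the meiotic genes thus shared their highest library, and so did the pregranulosa markers, which are genes of somatic cells: their sum was 1430 CPM in cKO 2 against 1090 to 1300 CPM in the other libraries, with 8 of 12 genes highest in cKO 2. Gene by gene, cKO 2 exceeded cKO 1 for 9 of 10 members, 15 of 15 meiotic genes, 9 of 12 pregranulosa markers and 6 of 20 oocyte markers, these 6 including *Dazl* and *Kit*. These shares compare a pair of libraries of 1 genotype and carry no test. In the same pair of libraries the immediate-early and smooth muscle sums given above also departed from the rest, and the part of that in these levels was not tested.

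**Figure D3:**
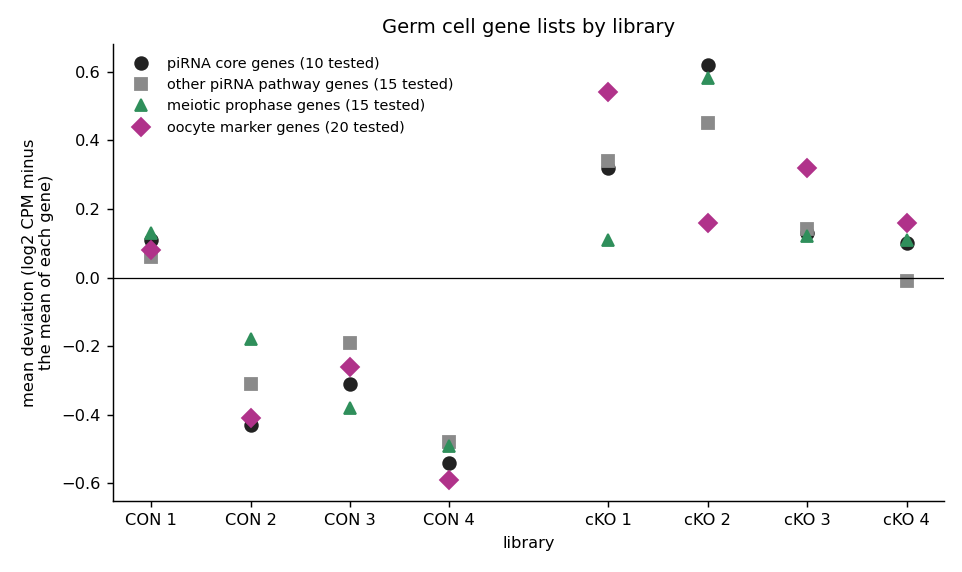
Mean deviation of each gene list in each library (vertical axis, log2 CPM minus the mean of each gene over the 8 libraries, averaged over the tested genes of the list) for core genes (black circles), other pathway genes (grey squares), meiotic prophase genes (green triangles) and oocyte markers (purple diamonds). The lists lie close together in CON 1 and CON 4 and part in cKO 1 and cKO 2, where core genes are at 0.32 and 0.62 and oocyte markers at 0.54 and 0.16.

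Each member was therefore also expressed as a percentage of the summed CPM of the 20 oocyte markers in the same library. On this scale the genotypes overlapped for all 10 members, and the differences of the log2 means between cKO and CON lay between -0.54, for *Piwil4*, and 0.26. *Ddx4* amounted to 1.72, 1.60, 1.65 and 1.75% in CON libraries 1 to 4, and to 1.63, 2.40, 1.63 and 1.74% in cKO libraries 1 to 4. Apart from cKO 2, the libraries of both genotypes thus lay in 1 narrow range. *Tdrd1* likewise amounted to 3.57, 3.31, 3.06 and 3.20% in CON libraries 1 to 4, and to 3.55, 5.65, 3.37 and 3.51% in cKO libraries 1 to 4. In cKO 2 the percentage was the highest of the 8 libraries for 9 members, and without that library the differences lay between -0.67 and 0.08, with 3 of the 10 above 0 against 8 with it. Relative to the sum of the meiotic genes, the differences lay between -0.57 and 0.23, with 8 of the 10 above 0. Without cKO 2 these differences lay between -0.5 and 0.25, again with 8 above 0. On this second scale cKO 2 was the highest library for 2 members, and the genotypes overlapped for 8. The exceptions were *Tdrd1* and *Mov10l1*, both higher in cKO. The meiotic sum weighs abundant genes most: of 272 CPM in CON 1, *Smc1b* made up 88.8 CPM. As *Smc1b* is among the genes most like the members, the 2 sides of this ratio were not chosen to differ. The share of all genes with overlapping genotypes was not computed on either scale. Among the oocyte markers, 13 were highest in cKO 1, so that the denominator itself differed between cKO 1 and cKO 2. The oocyte sum also weighs abundant genes most: of 2420 CPM in CON 1, *Padi6* made up 787 and *Zp2* 324 CPM. From cKO 1 to cKO 2 the log2 differences of these 2 genes were -0.51 and -0.75. In 6 of the 20 markers cKO 2 was the higher of the pair, as in *Dazl* (0.62) and *Kit* (0.23). The percentages in cKO 2 thus depend on how the markers are weighted.

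**Figure D4:**
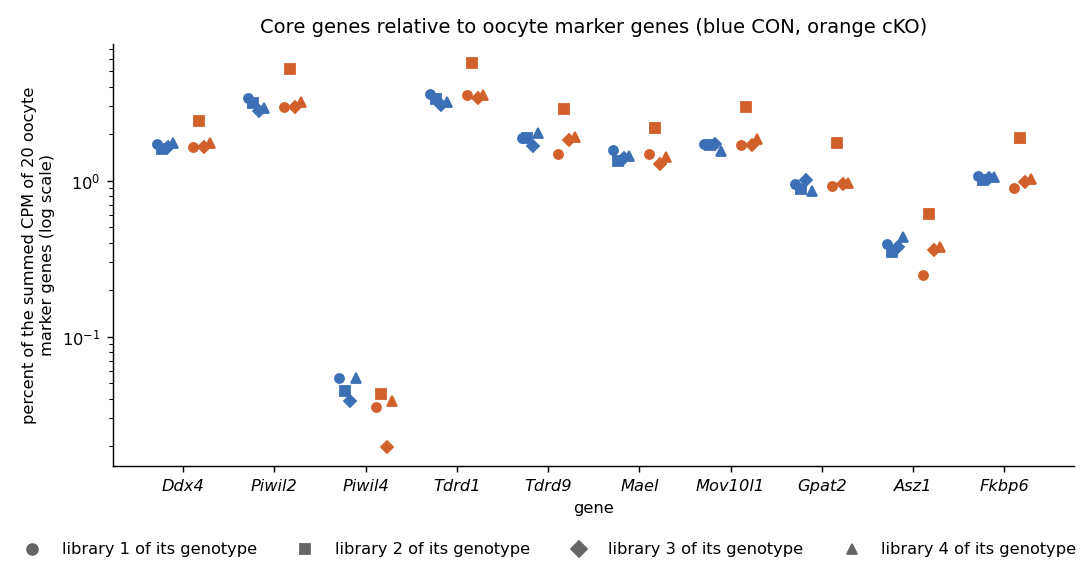
Level of each core gene as a percentage of the summed CPM of 20 oocyte markers in the same library (vertical axis, log scale), for CON (blue) and cKO (orange), with a symbol for each of the 4 libraries. For every gene but *Piwil4* the highest point is cKO 2. For *Tdrd1* the other 3 cKO libraries lie at 3.37 to 3.55%, against 3.06 to 3.57% in CON.

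Because 9 of the members varied together, the sequence before their start sites was read from RefSeq windows (GRCm38.p6, 250 bases before and 50 after a listed start), which held 9 of the 10 members. *Piwil2* was not matched. The E-box CACGTG, the palindrome bound by MYC, MAX and USF proteins among others, was present on either strand in the windows of 6 of these 9, *Ddx4*, *Tdrd1*, *Tdrd9*, *Mael*, *Mov10l1* and *Fkbp6*. It was present in 7.24% of all 27025 windows and in 9.86% of the 12063 windows of genes tested here. Among other pathway genes 3 of 12 windows held it, among oocyte markers 2 of 14 and among genes of meiotic prophase 5 of 18. The window read was the 5′-most of each gene, and these shares are not matched for base composition. These are descriptions of letters, not of bound sites. Windows of *Mael*, *Mov10l1* and *Tdrd9* are shown as far as they lie outside the annotated gene, and at most 30 bases around the sites of *Ddx4*, *Tdrd1* and *Fkbp6*, which lie within the annotated extent of their genes. Each is written 5′ to 3′ on the strand of the gene, with CACGTG in capitals.
Mael (chr1:166238745-166238994, - strand): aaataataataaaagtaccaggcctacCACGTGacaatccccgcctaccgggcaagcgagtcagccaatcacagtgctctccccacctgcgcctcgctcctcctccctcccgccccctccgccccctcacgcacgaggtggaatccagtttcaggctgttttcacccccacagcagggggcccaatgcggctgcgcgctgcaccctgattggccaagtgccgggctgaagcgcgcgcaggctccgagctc
Mov10l1 (chr15:88982744-88982890, + strand): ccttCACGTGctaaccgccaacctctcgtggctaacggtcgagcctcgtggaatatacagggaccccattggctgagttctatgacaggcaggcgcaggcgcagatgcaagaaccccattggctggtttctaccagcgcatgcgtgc
Tdrd9 (chr12:111971309-111971487, + strand): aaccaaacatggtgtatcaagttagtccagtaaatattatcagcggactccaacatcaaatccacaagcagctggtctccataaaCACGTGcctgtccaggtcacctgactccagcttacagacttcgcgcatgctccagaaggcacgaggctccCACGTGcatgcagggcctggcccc
Ddx4 (chr13:112652322-112652351, - strand): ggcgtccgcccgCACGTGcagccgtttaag
Tdrd1 (chr19:56826186-56826208, + strand): tggggctgcgcgCACGTGggagt
Fkbp6, upstream site (chr5:135350128-135350157, - strand): tgcgcctgccatCACGTGtgcagcgcgtgc
Fkbp6, downstream site (chr5:135350064-135350093, - strand): gcgtctatcgatCACGTGccgtttctctcg

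The sites lay at different distances from the listed start. Their first base was at -11 in *Tdrd1*, -29 in *Ddx4*, -37 and -101 in *Fkbp6*, -95 and -165 in *Tdrd9*, -223 in *Mael* and -246 in *Mov10l1*. Of the members that rose, *Gpat2* had no such site in its window, and *Mael* and *Fkbp6* had one and did not pass. The windows of *Piwil4* and *Asz1* held no CACGTG. Another 3 motifs were searched on both strands. GGCGGGA, an E2F-type motif, was in the windows of *Ddx4*, *Mael* and *Gpat2*, 3 of 9 against 11.4% of all windows and 20.6% of those of tested genes. AACTGNC, a MYB-type motif, was in that of *Fkbp6*, 1 of 9 against 12.9% and 11.3%. AAGGTCA, the extended recognition motif of the kind bound by NR5A2, was in 0 of 9 against 4.65% and 3.12%, from which nothing follows about binding elsewhere.

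**Figure D5:**
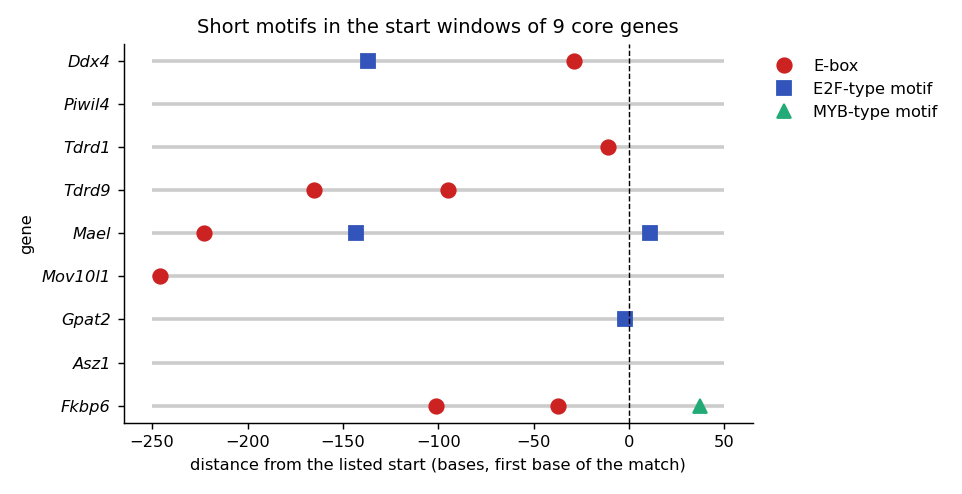
Positions of the motifs in the start windows of the 9 matched core genes (horizontal axis, distance in bases of the first base of the match from the listed start, marked by the dashed line). E-boxes (red circles) lie in 6 windows between -246 and -11, E2F-type motifs (blue squares) in 3 and a MYB-type motif (green triangle) in 1, and the windows of *Piwil4* and *Asz1* are empty.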

How the data were processed

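RNA of PND4 ovaries was made into stranded mRNA libraries and sequenced in pairs. Per the labels and the study's methods, the authors aligned reads to GRCm38 (mm10) with STAR and deposited read counts per gene made with featureCounts. The tool versions, the annotation and the use of strand are not given in the sources used here. Deposited columns of the authors' own DESeq2 comparison (fold changes, p-values) were not used.

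Of 24823 gene IDs, 99.7% were joined to a symbol, and 4956 had 0 counts in every library. Differences were tested with the quasi-likelihood F test of edgeR 4.0.16 under R 4.3.3, with TMM scaling, the filterByExpr filter and a robust fit of 4 libraries against 4 without covariates, and Benjamini-Hochberg adjustment over the 15257 genes that passed the filter. The standard error (SE) is the absolute log2 fold change divided by the square root of F. DESeq2 1.42.0 and limma 3.58.1 (voom) were alternatives, besides other scalings and filters, a fold rule of 1.5, each library left out in turn, and CON 1 with CON 3 or cKO 1 with cKO 2 left out. DESeq2 with single libraries left out was added after seeing that edgeR called no gene without CON 2 or CON 3. Only the main edgeR fit was tested on a simulated data set. No libraries were duplicates (smallest chi-square per gene between a pair, 3.67).

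Members and gene lists were chosen with earlier results of these data known. Named are all members, all tested other pathway genes (with values where the unadjusted p was under 0.05), and the 5 genes most like the members by Pearson's r. Of each further list, genes were named from the 4 with the smallest p, not always all of them. Besides these, *Padi6* and *Zp2* were named for their weight in the oocyte sum, and *Nr5a2* and *Amhr2* for their place in the design. Exonic lengths are from GENCODE, promoters from RefSeq. CPM in figures and text are TMM corrected.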

Additional observations from a re-analysis of the deposited data

Results flagged for a closer look

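In 3 of the 50 groups of 4 libraries examined, over the 10 members and the 15 other tested pathway genes, a single library stood apart by Dixon's ratio of its gap to the whole range, and chance gives about 5%. *Tdrd9* in CON had a ratio of 0.891, with CON 1 at 45.3 CPM above 32.2 to 33.4 CPM in the others. *Tdrd7*, which encodes a tudor protein of the germ granule, had a ratio of 0.949 in cKO, with cKO 2 at 44.5 CPM above 36.0 to 36.4 CPM. *Mybl1*, which encodes a MYB transcription factor of male meiosis, had a ratio of 0.863 in CON, with CON 2 at 12.4 CPM and the others at or below 11.2 CPM. *Tdrd9* without CON 1 is among the fits in which it passed.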

How the results depend on the processing

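Among members, 5 were higher in edgeR with all libraries, 8 in DESeq2, 3 with no count filter, 1 without CON 1 and CON 3, and 0 without cKO 1 and cKO 2. For the other pathway genes the 2 became 7, 1, 0 and 0, and 1 with the fold rule. For oocyte markers the 2 became 16, 1, 1 and 0, with 5 at a filter of 10 counts in every library and 10 in limma-voom. For meiotic prophase genes the 3 became 5, 1, 0 and 0. Over all genes 555 were higher and 501 lower, against 1237 and 1026 in DESeq2, 77 and 82 without CON 1 and CON 3, and 136 and 79 with the fold rule, and 318 and 499 without cKO 1 and cKO 2, where 38.9% of the calls were higher. Scaling by the upper quartile made 40.0% of the calls higher, against 52.6% with TMM and 61.5% by library size only.

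With single libraries left out, counts of higher genes ranged in edgeR and in DESeq2 from 0 to 8 and from 6 to 9 for members, 0 to 6 and 2 to 9 for other pathway genes, 0 to 15 and 5 to 19 for oocyte markers, 0 to 6 and 2 to 8 for meiotic genes, and 0 to 1026 and 476 to 1483 for all genes. Lower genes ranged from 0 to 736 and from 428 to 1096. The median of the members in edgeR and DESeq2 stayed between 0.54 and 0.78.

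*Piwil4*, between -0.18 and 0.19 with single libraries left out, turned positive without CON 1 (0.18, and 0.19 in DESeq2), without cKO 3 (0.17 and 0.18), without CON 1 and CON 3 (0.14) and by library size only (0.02). With 148 reads in 8 libraries its change is not resolved at this depth. No paired analysis was possible because the columns carry no replicate number of the labels and the genotypes share none.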
